A study of Mus musculus with 64 samples.

Results

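Gene expression in the cerebral cortex of mice labelled Q140 Polq+/- was compared with that of Q140 mice, 8 libraries against 8, out of 64 libraries in the whole series. The 16 libraries were chosen by their titles and tissue, and every gene counted in them was considered. Both groups carried 1 Q140 allele, an expanded CAG repeat knocked into Htt, the huntingtin gene of the mouse, which makes these animals a model of Huntington's disease. The Q140 Polq+/- mice were in addition labelled heterozygous for Polq, while the Q140 mice carried no Polq label. All were C57BL/6 mice aged 6 months, with 4 females and 4 males in each group and 1 cortex library per mouse, so that replicates were separate animals. Cortex of 8 Polq+/- mice without Q140 and of 8 wild-type mice, of the same age, background and sex ratio, entered the fits and served for comparison, as did striatum of the same Q140 Polq+/- and Q140 mice. The alteration of the Polq allele was not given in the sources used here. Cerebral cortex is named as the source in the labels, though their text on dissection speaks of striatum.

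Polq encodes DNA polymerase theta, which repairs double-strand breaks by pairing short stretches of matching sequence at resected DNA ends, a process known as theta-mediated or microhomology-mediated end joining. The pathway works beside classical non-homologous end joining and homologous recombination. Neurons no longer divide, and Polq messenger RNA is scarce in brain. In Huntington's disease the CAG tract lengthens further in some cells during life, a change that depends on mismatch repair proteins.

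Total gene counts were 31.6 to 40.1 M per library in Q140 Polq+/- cortex and 30.9 to 39.4 M in Q140 cortex. Log2 levels of any pair of these 16 libraries correlated at r = 0.995 or more across genes, Xist and Ddx3y matched the labelled sex in 16 of 16, and no pair of a group agreed within sampling noise. Markers of cortex were high, whereas the striatal markers Drd1, Drd2, Adora2a and Ppp1r1b were far lower than in striatum of the same mice. Slc17a7 encodes the vesicular glutamate transporter of cortical projection neurons. It lay at 1190 to 1290 CPM (counts scaled to the effective library size) in Q140 Polq+/- and at 1180 to 1390 CPM in Q140 cortex. In striatum of the same mice, with counts scaled to the library total instead, it lay at 2.06 to 4.67 CPM. The striatal dopamine receptor Drd2 was at 0.350 to 0.652 CPM in Q140 Polq+/- and 0.351 to 0.674 CPM in Q140 cortex. Ppp1r1b was not scarce, at 75.9 to 89.3 CPM in Q140 Polq+/- and 76.6 to 90.5 CPM in Q140 cortex. In striatum, scaled to the library total, Drd2 was at 160 to 183 CPM and Ppp1r1b at 1740 to 1990 CPM. The 15 striatal spiny neuron markers summed to 934 to 1040 CPM in Q140 Polq+/- and 922 to 1010 CPM in Q140 cortex.

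Polq (ENSMUSG00000034206) lies on chromosome 16 at 37011786 to 37095417 of GRCm38, on the plus strand, and its level in every mouse was set beside the label. It ran from 0.375 to 1.93 CPM in Q140 Polq+/- cortex, with a median of 1.21, and from 1.96 to 2.98 CPM in Q140 cortex, with a median of 2.29. Every Q140 Polq+/- mouse lay below every Q140 mouse. The fitted log2 fold change was -1.14 (SE 0.226, edgeR quasi-likelihood test, adjusted p = 0.0394), which is 0.454 of the Q140 level. The raw counts were small, 13 to 65 per Q140 Polq+/- library and 67 to 98 per Q140 library. The call was close to the threshold: Polq was not called in 12 of 16 fits that left out 1 library (adjusted p = 0.0567 to 0.0973), namely those without Q140 female 1, female 2, female 3, female 4, male 2, male 3 or male 4, or without Q140 Polq+/- female 2, female 3, female 4, male 2 or male 3. In all 16 of those fits the log2 fold change stayed between -1.30 and -1.01.

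The 8 mice labelled Q140 Polq+/- were not alike in Polq, so the fold change above is an average over unlike mice. Whether all 8 had the same Polq genotype was not tested. Female 3, female 4 and male 3 had 0.375, 0.414 and 0.447 CPM, whereas the other 5 had 1.12 to 1.93 CPM. The group is called by its label throughout, and fold changes of the called genes are also given without these 3 mice. The gene lists and marker sums include them. Without these 3 mice the log2 fold change of Polq was -0.67 (SE 0.16, edgeR adjusted p = 0.316). They were picked by their low Polq, so a smaller difference followed from the choice, and this value tests nothing about Polq. Among the Polq+/- mice without Q140, male 3 likewise had 0.602 CPM where the other 7 had 1.20 to 1.38 CPM.

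Htt (ENSMUSG00000029104, plus strand of chromosome 5, 34761740 to 34912534), the gene that carries the expanded tract in both groups, was not called. It ran from 194 to 234 CPM in Q140 Polq+/- cortex (median 215) and from 203 to 242 CPM in Q140 cortex (median 219), and the groups overlapped. The log2 fold change was -0.02 (95% interval -0.09 to 0.05, adjusted p = 0.962), and it turned to 0.007 without Q140 male 3 and to 0.005 without Q140 Polq+/- male 1.

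**Figure D1:**
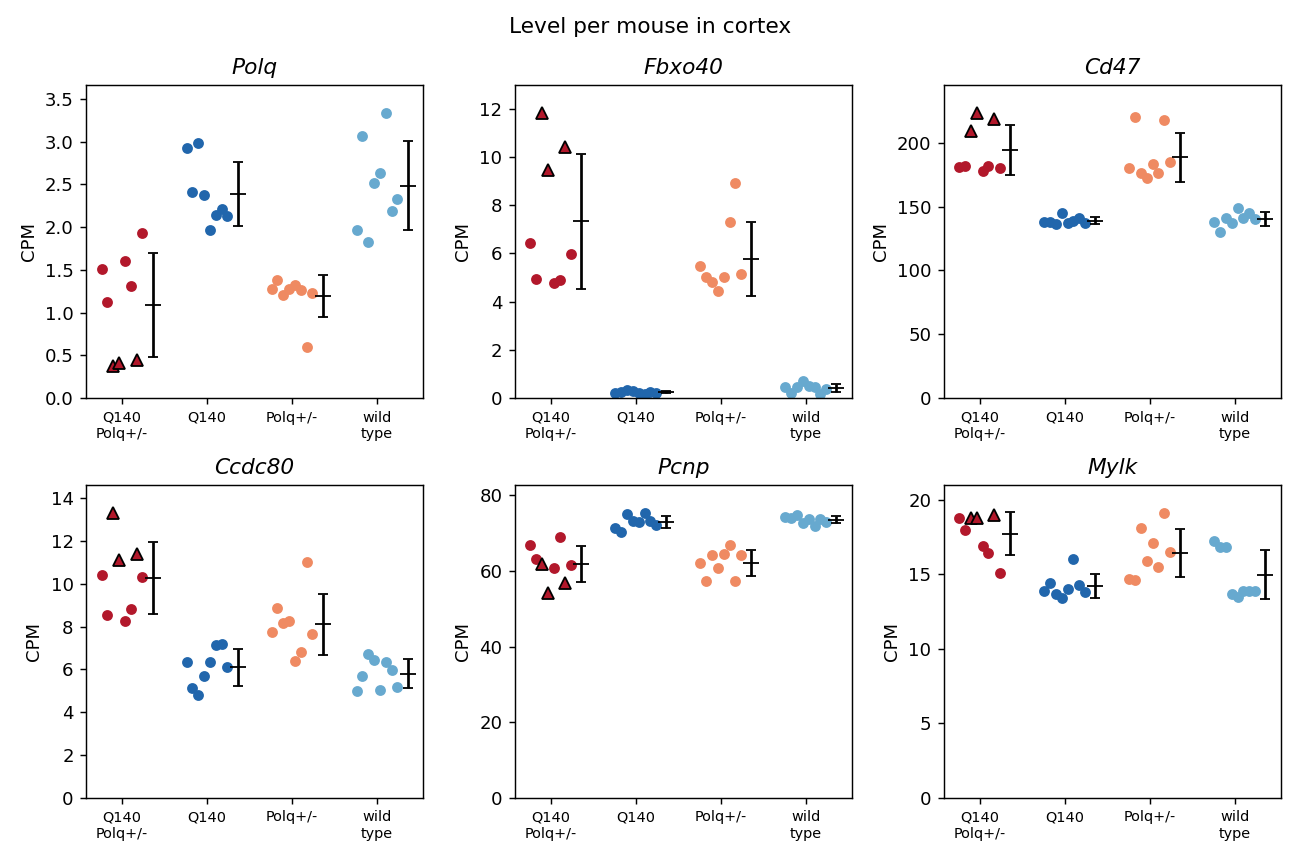
Level of 6 genes of chromosome 16 in cortex, in CPM on linear axes from 0, for each mouse (point) of the Q140 Polq+/-, Q140, Polq+/- and wild-type groups, with the mean and SD beside each group (n = 8 mice each). Triangles are the 3 Q140 Polq+/- mice of lowest Polq (0.375 to 0.447 CPM), which also held the highest Fbxo40 and Cd47 of their group.

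Few genes differed between the groups, and nearly all of them lie on the chromosome of Polq. Of 18116 genes tested, 10 were called at an adjusted p under 0.05 (0.0552%), 8 higher and 2 lower in Q140 Polq+/- cortex. Of these 10 genes 9 are on chromosome 16, within 25 Mb of Polq, and 5 are within 10 Mb. At an unadjusted p under 0.05 there were 1136 genes (6.27%). Without the 3 mice of lowest Polq 5 genes were called, all on chromosome 16: Fbxo40, Cd47, Ift57, Ccdc80 and Pcnp. Their log2 fold changes were then 4.44, 0.37, 0.20, 0.60 and -0.18 in that order, each smaller in size than with all mice. The 3 mice were picked by their low Polq, and 5 mice then stood in place of 8. The smaller values and the lost calls therefore test nothing about these genes. In mice labelled Polq+/-, the altered allele and the stretch of chromosome inherited with it cannot be told apart.

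Fbxo40 (ENSMUSG00000047746, minus strand, 36963460 to 36990467) is the nearest of the called genes to Polq, its annotated start lying 0.0483 Mb before that of Polq. It encodes an F-box protein, the substrate-binding part of a ubiquitin ligase, known from mouse muscle. Fbxo40 lay at 4.75 to 11.8 CPM in Q140 Polq+/- cortex (median 6.20) and at 0.171 to 0.335 CPM in Q140 cortex (median 0.244). The groups were far apart, and 6 to 11 counts stood behind each Q140 value. The log2 fold change was 4.89 (SE 0.284, adjusted p = 1.71e-12), a 29.7-fold higher level. Female 3, female 4 and male 3, the mice of lowest Polq, had 11.8, 9.44 and 10.4 CPM, and the other 5 had 4.75 to 6.41 CPM. Without those 3 the log2 fold change was 4.44 (SE 0.208, adjusted p = 9.64e-17).

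Mylk (plus strand, 34745210 to 35002420), which encodes the myosin light chain kinase, begins 2.27 Mb before Polq. It ran from 15.1 to 19.0 CPM in Q140 Polq+/- cortex (median 18.4) and from 13.4 to 16 CPM in Q140 cortex (median 13.9). The groups overlapped only through Q140 Polq+/- male 4, at 15.1 CPM, and Q140 male 2, at 16 CPM. The log2 fold change was 0.32 (SE 0.0589, adjusted p = 0.00692), and 0.27 (adjusted p = 0.437) without the 3 mice of lowest Polq.

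Ccdc80 (plus strand, 45093402 to 45128077), which encodes a protein of the extracellular matrix, begins 8.08 Mb beyond Polq. Its level was 8.28 to 13.3 CPM in Q140 Polq+/- cortex (median 10.4), against 4.78 to 7.2 CPM in Q140 cortex (median 6.23), with no overlap. The log2 fold change was 0.75 (SE 0.103, adjusted p = 9.91e-05). BC016579 (minus strand, 45626848 to 45654068), a gene known by its cDNA clone, was scarce, with 0.408 to 0.980 CPM in Q140 Polq+/- cortex (median 0.723) and 0.162 to 0.371 CPM in Q140 cortex (median 0.24). Its groups did not overlap either (log2 fold change 1.53, SE 0.236, adjusted p = 3.47e-04). Without the 3 mice of lowest Polq it was at 1.29 and not called (edgeR adjusted p = 0.0756).

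Ift57 and Cd47 are neighbours on the plus strand, 49699233 to 49765126 and 49800533 to 49915010. Ift57 encodes a subunit of intraflagellar transport in cilia, known also as Hippi for its binding to the huntingtin partner Hip1. It ran from 44.2 to 50.6 CPM in Q140 Polq+/- cortex (median 45.9) and from 36.5 to 41.5 CPM in Q140 cortex (median 39.7), with no overlap (log2 fold change 0.26, SE 0.0339, adjusted p = 1.98e-05). Cd47 encodes the surface protein that binds Sirpa on microglia and macrophages and restrains phagocytosis. Cd47 had 178 to 223 CPM in Q140 Polq+/- cortex (median 182) and 136 to 145 CPM in Q140 cortex (median 138). Its log2 fold change was 0.48 (SE 0.0523, adjusted p = 3.33e-06), a 1.40-fold higher level over the group, and 8 of 8 mice lay above every Q140 mouse. The 3 mice of lowest Polq again stood apart, at 209, 223 and 219 CPM, where the other 5 lay within 178 to 182 CPM.

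Abi3bp and Pcnp lie farther out. Abi3bp (plus strand, 56477878 to 56690135), which encodes an extracellular matrix protein that binds the SH3 domain of Abi3, had 10 to 20.7 CPM in Q140 Polq+/- cortex (median 11.6) and 4.64 to 11.5 CPM in Q140 cortex (median 6.13). The groups overlapped through Q140 female 3, at 11.5 CPM. Its call was narrow (log2 fold change 0.94, SE 0.186, adjusted p = 0.0476), and 11 of 16 fits that left out 1 library did not make it (adjusted p = 0.0518 to 0.159). Those were the fits without Q140 female 1, female 2, female 4, male 1, male 2 or male 4, or without Q140 Polq+/- female 3, female 4, male 1, male 2 or male 3. It was also not called with the replicate block (0.93, adjusted p = 0.0851) or without the 3 mice of lowest Polq (0.75, adjusted p = 0.711), and in 20 of 30 alternatives in all. Pcnp (minus strand, 56007245 to 56029739), which encodes a PEST-containing nuclear protein, was lower, with 54.3 to 69.0 CPM in Q140 Polq+/- cortex (median 61.8) and 70.4 to 75.3 CPM in Q140 cortex (median 73.0). Every Q140 Polq+/- mouse lay below every Q140 mouse (log2 fold change -0.24, SE 0.0344, adjusted p = 9.91e-05).

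The single call outside chromosome 16 was Gm7887 (ENSMUSG00000044211, minus strand of chromosome 6, 48524554 to 48525090), a processed pseudogene. It had 18.5 to 22.9 CPM in Q140 Polq+/- cortex (median 19.7) and 14.9 to 18.2 CPM in Q140 cortex (median 16.7), with no overlap (log2 fold change 0.28, SE 0.0506, adjusted p = 0.00602). Without the 3 mice of lowest Polq it was at 0.24 and not called (edgeR adjusted p = 0.29). Gm7887 is a copy of Pcnp: its 537 bases match the whole coding sequence of a Pcnp transcript at 535 positions (99.6%). The bases that differ, G429C and T443C, counted from 1 at the first base of the Pcnp start codon with the base of Pcnp first, are shown in capitals within a stretch of 53 bases from the GENCODE M21 transcripts. That stretch is chr16:56017265-56017317 in Pcnp and chr6:48524628-48524680 in Gm7887, each on the minus strand.
Pcnp: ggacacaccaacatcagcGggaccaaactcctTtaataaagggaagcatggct
Gm7887: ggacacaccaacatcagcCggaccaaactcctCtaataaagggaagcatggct

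Reads that lie wholly within the coding sequence can therefore be told apart only where they cover 1 of these 2 bases, and the calls of both genes are uncertain. The mean of Pcnp differed by -11.1 CPM between Q140 Polq+/- and Q140 cortex, and that of Gm7887 by 3.57 CPM. Counted as 1 feature, the pair stood at 82.1 ± 3.88 CPM in Q140 Polq+/- and 89.6 ± 2.35 CPM in Q140 cortex (SD, n = 8 each), with a log2 fold change of -0.13 (SE 0.025, edgeR adjusted p = 0.0302). Pcnp also overlaps Zbtb11 on the other strand over 1669 bases (log2 fold change of Zbtb11 -0.11, adjusted p = 0.704), and Gm7887 lies wholly within the region of Zfp862-ps on the other strand (0.02, adjusted p = 0.96). A transcript of Zfp862-ps also matches Pcnp over 460 aligned bases (99.8%), and that gene was left out of the summed feature. Whether strand was used in the counting was not given in the sources used here. Ift57 and Mylk overlap the antisense genes Gm15518 and 1700119H24Rik, which had 3 counts and 1 count in all 16 libraries.

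**Figure D2:**
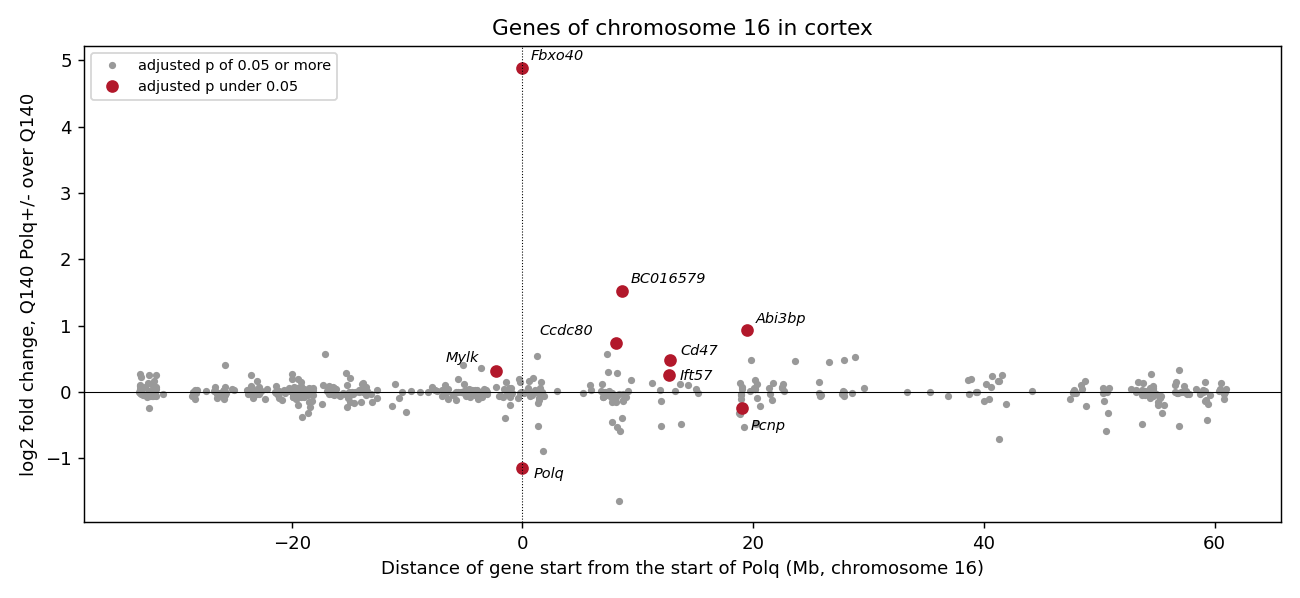
Log2 fold change (Q140 Polq+/- over Q140, cortex) of the tested genes of chromosome 16 against the distance of their start from that of Polq, in Mb. Red points are the 9 genes with an adjusted p under 0.05, which lie between 2.27 Mb before Polq and 19.5 Mb beyond it.

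The share of genes with a low p varied along the chromosome and was highest between 10 and 20 Mb beyond Polq. Of 529 tested genes of chromosome 16 with an annotated start, 67 had an unadjusted p under 0.05 (12.7%), against 1069 of 17584 on the other chromosomes (6.08%). The share was 11.2% in the 10 Mb before Polq (80 genes), 31.0% in the first 10 Mb beyond it (58 genes), 48.0% between 10 and 20 Mb (25 genes) and 26.7% between 20 and 30 Mb (30 genes). Elsewhere it was 3.70% more than 20 Mb before Polq (108 genes), 5.88% between 20 and 10 Mb before it (119 genes) and 8.91% more than 40 Mb beyond it (101 genes). The bin between 30 and 40 Mb held 8 genes, with 0 at that threshold.

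The next 15 genes in order of p, none of them called by edgeR, included 7 more of chromosome 16. The nucleotide sugar transporter family gene Slc35a5, 8.13 Mb beyond Polq, came nearest (log2 fold change -0.15, SE 0.0313, adjusted p = 0.0518), with 41.0 ± 1.77 CPM in Q140 Polq+/- and 45.4 ± 1.89 CPM in Q140 cortex. The axon guidance gene Sema5b (-0.38, adjusted p = 0.104), the ephrin receptor gene Epha3 (0.45, adjusted p = 0.104), the nuclear NF-kappaB regulator Nfkbiz (-0.32, adjusted p = 0.114) and the centrosomal Cep97 (-0.33, adjusted p = 0.123) followed. DESeq2 called these 5 genes as well as Gm38077 of chromosome 9 (0.24, adjusted p = 0.138 by edgeR), which made 16 calls with the 10 of edgeR. Of genes on other chromosomes, the ciliary dynein assembly factor Dnaaf1 was at 0.204 to 0.562 CPM in Q140 Polq+/- and 0.0251 to 0.194 CPM in Q140 cortex (1.30, SE 0.299, adjusted p = 0.114). Only 7 to 19 counts stood behind each Q140 Polq+/- value and 1 to 7 behind each Q140 value. In mice without Q140, Dnaaf1 overlapped, at 0.117 to 0.41 CPM in Polq+/- and 0.118 to 0.363 CPM in wild-type cortex. Ccdc181 of chromosome 1 (0.14, adjusted p = 0.399), the lysosomal iduronidase gene Idua (0.18), the dendritic cell marker Cd83 (0.17), the zinc finger gene Zfp784 (0.33), the phosphoinositide kinase gene Pip5k1a (-0.12) and Lrrcc1 (0.22) shared that adjusted p of 0.399.

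Values per mouse showed where the 3 mice of lowest Polq parted from the other 5. Sema5b lay at 5.13 to 6.10 CPM in these 3 and at 6.20 to 7.32 CPM in the other 5, with Q140 mice at 6.80 to 10.1 CPM. Ccdc80 was 11.1 to 13.3 CPM in the 3, 8.28 to 10.4 CPM in the other 5 and 4.78 to 7.2 CPM in Q140 mice. Ift57 was 49.7 to 50.6 CPM in the 3, 44.2 to 45.9 CPM in the other 5 and 36.5 to 41.5 CPM in Q140 mice. For Dubr, 13.7 Mb beyond Polq, and for Cep97, Pcnp and Abi3bp, 18.9 to 19.5 Mb beyond it, female 3 did not stand with female 4 and male 3. Dubr was 2.57 and 2.31 CPM in female 4 and male 3 but 3.83 CPM in female 3, where the other 5 had 3.38 to 4.93 CPM. Cep97 was 14.9 and 16.5 CPM in female 4 and male 3 but 23.9 CPM in female 3, where the other 5 had 18.6 to 22.1 CPM. Abi3bp was 20.7 and 15.6 CPM in female 4 and male 3 but 11.6 CPM in female 3, where the other 5 had 10 to 13.4 CPM. Pcnp was 54.3 and 56.7 CPM in female 4 and male 3 but 61.9 CPM in female 3, where the other 5 had 60.9 to 69.0 CPM. These mice were set apart by their Polq level, so no test was made between them and the rest.

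A further gene of the region, Gm609 (8.40 Mb beyond Polq), was picked after its values were seen. It had 0 to 1 counts in the 3 mice of lowest Polq, 7 to 13 counts in each of the other 5 and 8 to 28 counts in each Q140 mouse. Over the groups it was not called (log2 fold change -1.64, SE 0.433, adjusted p = 0.404).

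**Figure D3:**
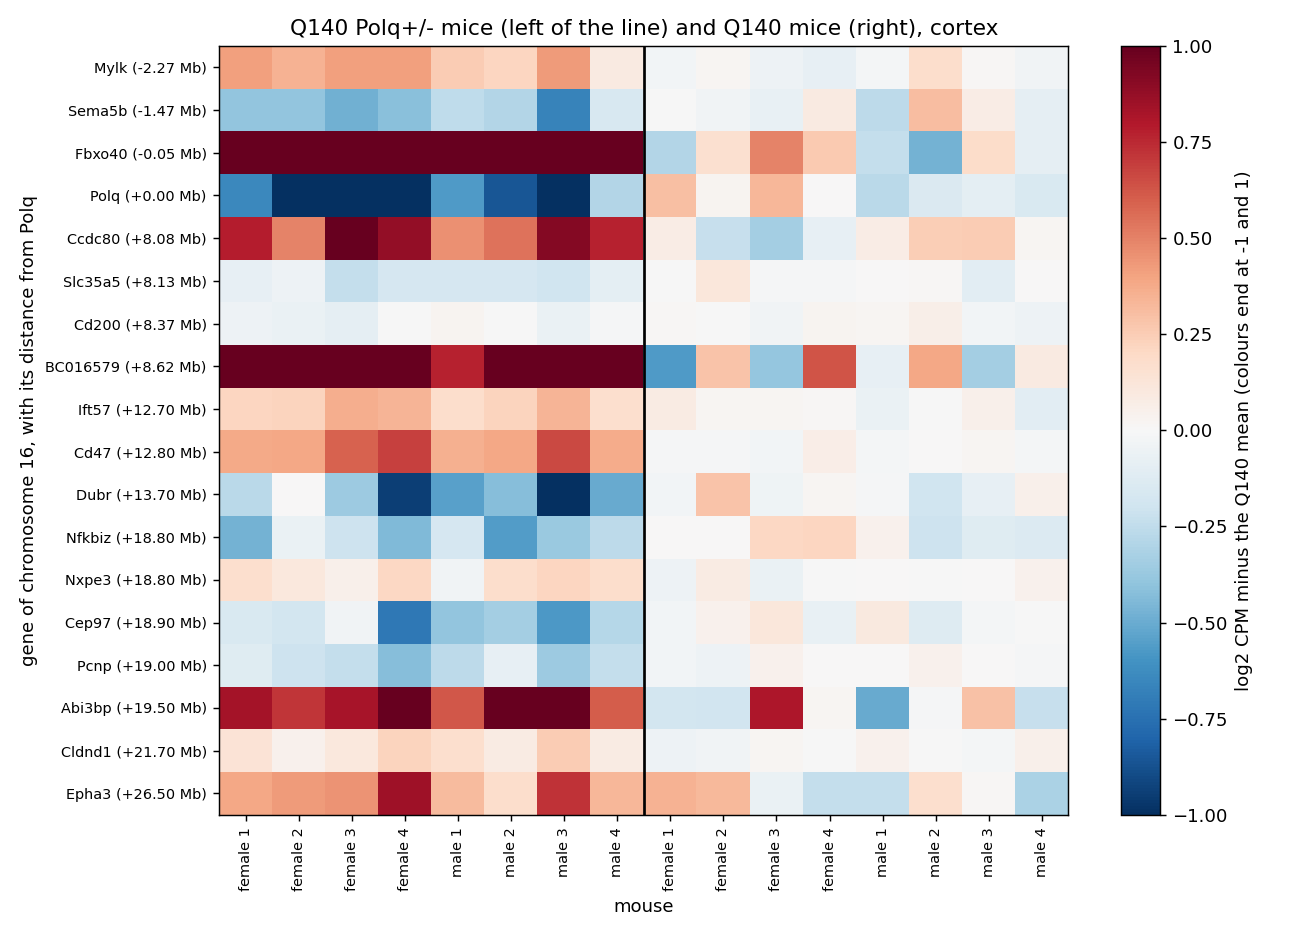
Log2 CPM minus the Q140 mean for 18 genes of chromosome 16, ordered by distance from Polq (rows), in each Q140 Polq+/- mouse (left of the line) and each Q140 mouse (right). Red is higher and blue lower than the Q140 mean, with colours ending at -1 and 1, and female 3 differs from female 4 and male 3 in the rows of Dubr, Cep97 and Abi3bp.

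The same Polq label was compared in mice without Q140, in libraries that share no animal with the main comparison. In Polq+/- against wild-type cortex 8 of 18116 genes were called (0.0442%), and all 8 are on chromosome 16: Fbxo40, Cd47, Ift57, Pcnp, Abi3bp, Dubr, Nxpe3 and Cldnd1. Of these, 5 were among the 10 called with Q140 (62.5% of the 8 and 50% of the 10). The count dropped to 5 without Polq+/- female 1, female 2 or male 3, or without wild-type female 3 or male 4. Fbxo40 stood at 4.44 to 8.92 CPM in Polq+/- and 0.160 to 0.690 CPM in wild-type cortex (log2 fold change 3.79, adjusted p = 2.04e-10). Cd47 stood at 172 to 220 CPM in Polq+/- and 130 to 149 CPM in wild-type cortex (0.43, adjusted p = 4.15e-05), its 2 highest values being those of female 2 and of male 3, the mouse of lowest Polq. Ift57 was at 0.25, Pcnp at -0.24 and Abi3bp at 1.17.

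The genes called in only 1 of the 2 comparisons had the same sign in the other, 8 of 8. Polq itself was at -1.06 (SE 0.223, adjusted p = 0.0797) in Polq+/- against wild-type cortex. Ccdc80 was at 0.48 (adjusted p = 0.0978), Gm7887 at 0.23 (adjusted p = 0.0955), BC016579 at 1.01 (adjusted p = 0.173) and Mylk at 0.14 (adjusted p = 0.999). In the other direction, the long non-coding RNA Dubr was at -0.49 (adjusted p = 0.399), the neurexophilin family gene Nxpe3 at 0.14 (adjusted p = 0.667) and the claudin domain gene Cldnd1 at 0.14 (adjusted p = 0.172) in Q140 Polq+/- against Q140 cortex. Across the 333 tested genes within 25 Mb of Polq the fold changes of the 2 comparisons correlated at r = 0.839, or 0.618 without Fbxo40. Across the 17780 genes elsewhere r was -0.015. Genes are not independent replicates, and both comparisons came from 1 fit, so these values are descriptions.

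**Figure D4:**
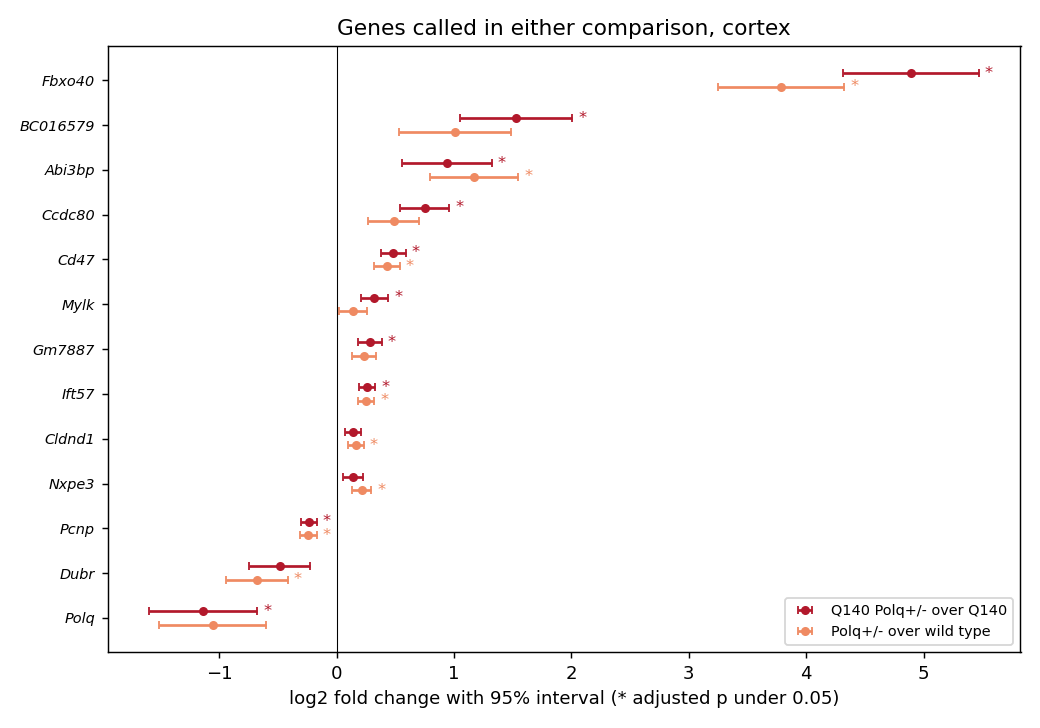
Log2 fold changes with their 95% intervals for the 13 genes called in either comparison, for Q140 Polq+/- over Q140 (upper, dark) and Polq+/- over wild type (lower, light). Asterisks mark an adjusted p under 0.05; all 13 genes have the same sign in both.

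Whether the effect of the Polq label differed with Q140 was tested gene by gene as an interaction. No gene was called by edgeR, 0 of 18116 (0%), with 863 at an unadjusted p under 0.05 and a smallest adjusted p of 0.99. DESeq2 and limma voom called 0 as well, as did edgeR without the 3 Q140 Polq+/- mice of lowest Polq. The 2 labelled groups were unlike in such mice, 3 in Q140 Polq+/- and only male 3 in Polq+/-. The part of this in the estimates below was not tested. Fbxo40 had the interaction estimate 1.11 (SE 0.482, 95% interval 0.12 to 2.09, adjusted p = 0.99), Polq -0.08 (-0.73 to 0.57), Cd47 0.05 (-0.10 to 0.20) and Ccdc80 0.26 (-0.04 to 0.57). The median SE was 0.0786, against 0.0555 for Q140 Polq+/- against Q140. Among 15161 genes with a mean of at least 1 CPM, 94.2% had an interaction interval within a change of 1.5-fold, and 98.9% had such an interval for Q140 Polq+/- against Q140.

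Females and males gave no called difference, 0 of 18116 genes (0%) by edgeR, with 796 at an unadjusted p under 0.05. Fbxo40 was at 4.89 in females and 4.90 in males, and Cd47 at 0.51 and 0.45. Polq was at -1.64 in females and -0.69 in males, a difference of -0.96 that was not called (adjusted p = 0.996). Of the 3 mice of lowest Polq, 2 are females.

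In striatum of the same mice 10 of 18270 genes were called (0.0547%), 5 of which were also called in cortex: Fbxo40, Cd47, Ccdc80, Mylk and Pcnp. The 2 tissues share their animals. Ift57 was not called in striatum (0.06, adjusted p = 1). Fbxo40 in striatum was at 4.12 to 9.29 CPM in Q140 Polq+/- and 0.273 to 0.648 CPM in Q140 mice. Slc35a5 (-0.28), Sema5b (-0.60), Cep97 (-0.37) and Cd200 (-0.19), the ligand of a receptor on microglia, were called in striatum, and in cortex Cd200 was at -0.03 (95% interval -0.08 to 0.02).

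The test of the difference between the tissues called 1 of 19091 genes (0.00524%), Mylk, with 728 genes at an unadjusted p under 0.05. Mylk in striatum had 15.7 to 28.8 CPM in Q140 Polq+/- and 7.63 to 8.80 CPM in Q140 mice, a log2 fold change of 1.35 (SE 0.117), against 0.32 in cortex. The difference, cortex minus striatum, was -1.01 (SE 0.0941, adjusted p = 1.25e-08). Abi3bp in striatum had 6.72 to 13.9 CPM in Q140 Polq+/- and 11.8 to 19.9 CPM in Q140 mice. Its log2 fold change was 0.94 in cortex and -0.56 in striatum, with a difference of 1.49 that was not called (adjusted p = 0.0689).

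Outside the region of Polq, DNA repair genes were not called. Over 15 pathway lists with 258 tested genes, 1 gene was called, Polq itself, and 18 had an unadjusted p under 0.05 (6.98%, beside 6.27% of all genes). Of the 15 tested genes of theta end joining, Polq was the 1 called. The end-joining factor Parp1 was at -0.04 (SE 0.027), with 86.3 ± 3.49 CPM in Q140 Polq+/- and 88.8 ± 2.43 CPM in Q140 cortex. Rad50, a subunit of the complex that senses broken ends, was at 0.08, and the median of the list was -0.005. Among 12 genes of non-homologous end joining 0 were called and 2 had p under 0.05, both higher: the kinase gene Prkdc (0.09, SE 0.038), which itself lies on chromosome 16 at 21.4 Mb before Polq, and the nuclease gene Dclre1c (0.10, SE 0.0447).

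Homologous recombination and Fanconi genes had the highest median of the pathway lists, 0.07 over 23 tested genes, where the median over all tested genes was 0.00. None of the 23 was called by edgeR, and 4 had an unadjusted p under 0.05, all higher in Q140 Polq+/- cortex. The checkpoint kinase gene Atr had 18.2 ± 1.49 CPM in Q140 Polq+/- and 16.2 ± 0.735 CPM in Q140 cortex (0.16, SE 0.0509, adjusted p = 0.667). Brca2, a tumour suppressor gene of this pathway, was at 0.29 (SE 0.104) and Rad52 at 0.12. In Polq+/- against wild-type cortex the median of the list was -0.04, with Atr at -0.01, Brca2 at 0.01 and Rad52 at -0.06.

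Genes of mismatch repair and CAG expansion were not called, 0 of 18, with 1 at p under 0.05. That gene was Msh6, with 19.0 ± 0.784 CPM in Q140 Polq+/- and 20.1 ± 1.18 CPM in Q140 cortex (-0.08, SE 0.0352, adjusted p = 0.781). Msh3, whose protein binds extruded CAG loops, was at 0.06 (SE 0.0421). Of 23 DNA polymerase genes the 1 called was Polq, and the mitochondrial polymerase subunit gene Polg2 came next (0.16, adjusted p = 0.813).

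Genes that respond to DNA damage, to nucleic acids in the cytosol and to neuronal activity were not called either. Of 24 p53 targets 1 had p under 0.05, the antiproliferative Btg2, at 26.8 ± 16.4 CPM in Q140 Polq+/- and 16 ± 7.34 CPM in Q140 cortex (0.69, SE 0.316, adjusted p = 0.787). Btg2 is also an immediate early gene, a list with 0 of 20 called, in which the synaptic scaffold gene Homer1 was at -0.22 (SE 0.093). Interferon and DNA sensing genes had 0 of 20 called and 1 at p under 0.05, Ifi27 (-0.15, SE 0.0527). Among circadian genes 0 of 16 were called, with Per2 at -0.32 (SE 0.157).

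Huntingtin and its partners had 0 of 15 called, with 1 higher and 1 lower at an unadjusted p under 0.05, the lower being F8a at -0.10. The 15 log2 fold changes ran from -0.10 to 0.11. The neurotrophin gene Bdnf, which cortical neurons supply to striatum, had 30.1 ± 5.08 CPM in Q140 Polq+/- and 34.9 ± 2.9 CPM in Q140 cortex (-0.22, SE 0.118, adjusted p = 0.821). Glutamate receptors (0 of 22), cholesterol synthesis (0 of 19), chaperones (0 of 17) and the mitochondrial genome (0 of 13) gave no call, with list medians of 0.02, -0.02, -0.05 and 0.06.

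Summed levels of cell type markers overlapped between the groups. None of 148 tested markers in 14 lists was called by edgeR, and 8 had an unadjusted p under 0.05 (5.41%). The summed level of 12 upper layer neuron markers was 2220 to 2450 CPM in Q140 Polq+/- and 2160 to 2370 CPM in Q140 cortex, and that of 16 deep layer markers was 501 to 584 CPM in Q140 Polq+/- and 506 to 642 CPM in Q140 cortex. Astrocyte markers summed to 4080 to 4670 CPM in Q140 Polq+/- and 3910 to 4550 CPM in Q140 cortex, and mature oligodendrocyte markers summed to 1960 to 2500 CPM in Q140 Polq+/- and 2100 to 2650 CPM in Q140 cortex. Microglial markers summed to 364 to 399 CPM in Q140 Polq+/- and 359 to 394 CPM in Q140 cortex. In bulk tissue, fewer cells of a type and less RNA per cell cannot be told apart. The 9 cerebellar granule cell markers summed to 44 to 55.2 CPM in Q140 Polq+/- and 42.4 to 55.6 CPM in Q140 cortex. Of these, Gabra6 was at 0 counts in 8 of the 16 libraries, and Cbln3 in 0 of 16. Thalamus markers summed to 197 to 215 CPM in Q140 Polq+/- and 189 to 215 CPM in Q140 cortex. Choroid plexus markers summed to 4.24 to 10.8 CPM in Q140 Polq+/- and 4.25 to 8.66 CPM in Q140 cortex.

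Blood genes were the exception in size. All 5 tested, the haemoglobin genes Hbb-bs, Hbb-bt, Hba-a1 and Hba-a2 and the haem synthesis gene Alas2, had an unadjusted p under 0.05 and log2 fold changes between -2.15 and -1.63, without being called. Their summed level was 1.21 to 21.5 CPM in Q140 Polq+/- cortex (median 3.06) and 0.953 to 66.2 CPM in Q140 cortex (median 9.21). In 3 Q140 libraries, those of female 3, male 2 and male 4, the sum was 37.6 to 66.2 CPM, and in the other 5 it was at most 12.5 CPM. The haemoglobin alpha genes are near-identical copies whose counts are uncertain, and the part of blood in other results was not tested.

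**Figure D5:**
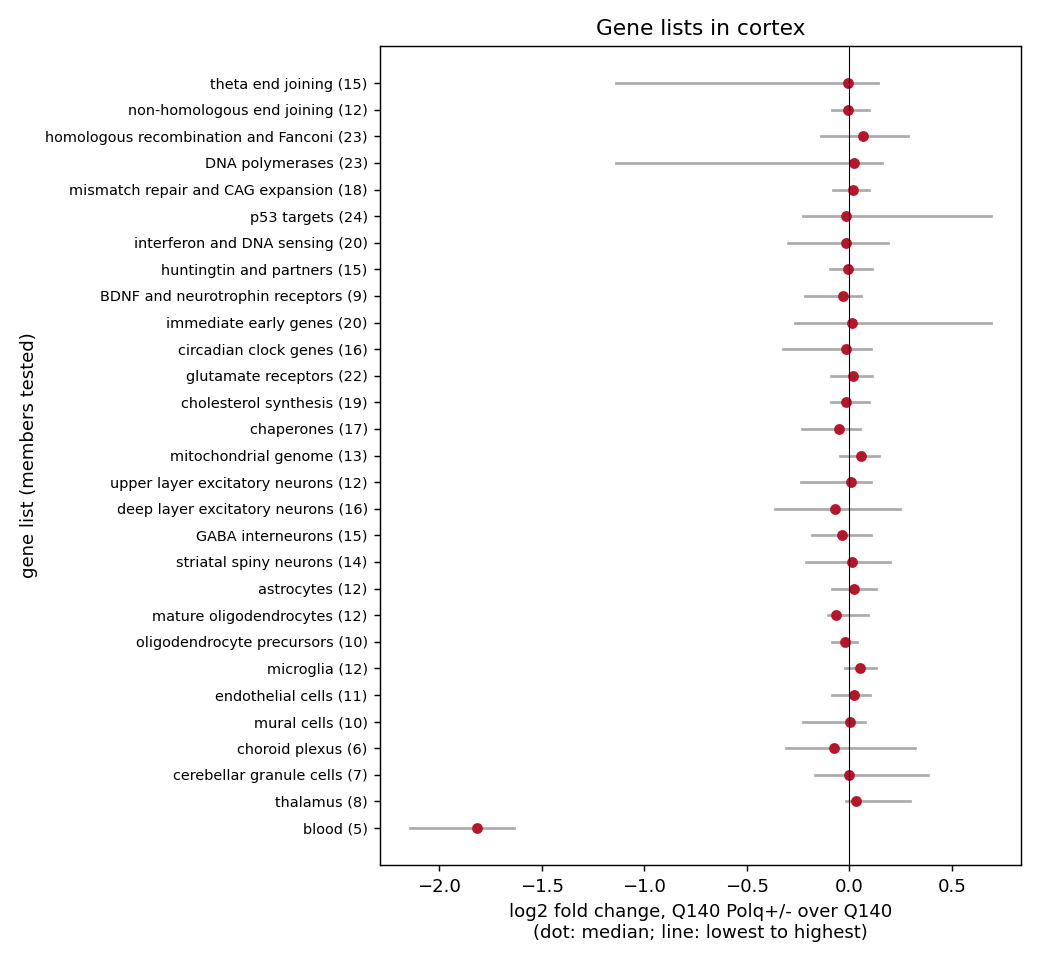
Median (dot) and range (line) of the log2 fold change, Q140 Polq+/- over Q140 in cortex, for the tested members of 29 gene lists, with the number tested in brackets. The medians lie between -0.08 and 0.07 except that of the 5 blood genes, at -1.82.

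The response of cortex to Q140 was set beside these values. Between Q140 carriers and non-carriers of both Polq labels, 446 of 18116 genes were called (2.46%). That contrast uses the same libraries, so the values are given side by side and nothing is read from their relation. The 12 genes of smallest p included 6 on chromosome 5, which holds Htt, and 6 elsewhere. Of the 6 elsewhere, the CaM kinase inhibitor gene Camk2n1 averaged 2460 ± 147 CPM in Q140 Polq+/- and 2380 ± 141 CPM in Q140 cortex, 2890 ± 143 CPM in Polq+/- and 2910 ± 216 CPM in wild-type cortex (SD, n = 8 each). Its log2 fold change was 0.05 for Q140 Polq+/- against Q140 (95% interval -0.03 to 0.13) and -0.26 for carriers against non-carriers.

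For 4 more of these genes the interval included 0 in Q140 Polq+/- against Q140. The orphan receptor gene Gpr153 was at 0.06 for Q140 Polq+/- against Q140 (-0.06 to 0.18) and at -0.39 for carriers. Lingo1, which encodes an inhibitor of axon growth and myelination, was at -0.05 (-0.13 to 0.03) and -0.25. R3hdm1 was at -0.01 (-0.07 to 0.05) and -0.17. Enpp6, a marker of newly formed oligodendrocytes, had 4.23 ± 0.701 CPM in Q140 Polq+/-, 4.29 ± 0.664 CPM in Q140, 2.79 ± 0.449 CPM in Polq+/- and 2.53 ± 0.50 CPM in wild-type cortex, with -0.02 (-0.24 to 0.20) for Q140 Polq+/- against Q140 and 0.68 for carriers.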

How the data were processed

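Per the labels' protocols, RNA was extracted with a Qiagen RNeasy kit and libraries were made with the Illumina TruSeq stranded protocol. The submitters' processing notes name STAR 2.7.5c, SAMtools 1.10, HTSeq 0.12.3 and the build GRCm38 (mm10). For 48795 genes the deposited files hold unnormalized read counts and, as FPKM, values that the authors scaled by length and depth. The deposited FPKM values were checked to be the counts divided by gene length and library total (relative spread of at most 6.9e-09 over 15456 genes with at least 10 counts in every library). No column of another sample was found (0). Positions came from GENCODE M21, which held 48435 of the gene IDs, and 27 names that had become dates were restored.

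The 32 cortex libraries entered 1 edgeR 4.0.16 quasi-likelihood fit in R 4.3.3 (robust, with TMM scaling, sex as covariate and filterByExpr run on the 4 genotypes), and comparisons were contrasts. Genes were called at a Benjamini-Hochberg adjusted p under 0.05, taken over all genes tested. SE is the log2 fold change divided by the root of F, and intervals (95%) use the fit's degrees of freedom. For the tissue difference, all 64 libraries were fitted with mice as blocks. The fits were tested on simulated counts.

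Genes named were Polq, Htt and Fbxo40, every called gene, the next by p up to 25, and up to 4 genes per list with the smallest p. A few genes that this rule names are not reported here. Genes of the other comparisons, Gm609 and the genes that overlap called ones were added after their values were seen. The members, the 29 gene lists and the rules were chosen with earlier results of these data known. Alternatives were DESeq2 1.42.0 and its size factors, limma 3.58.1 (voom, trend on FPKM with a pseudocount of 0.1 or 1), other filters, designs and blocks, an adjusted p under 0.1, leaving out 3 mice and leaving out each library. A window of 25 Mb and the sum of Pcnp and Gm7887 were chosen after seeing the data. After group and sex means were removed, same-numbered mice of both groups correlated at -0.13 to 0.238, above 0.1 in 5 of 8 pairs. What the replicate numbers mark was not stated, so the main fit did not pair the mice. Whether same-numbered mice share anything was not tested, and a fit with replicate blocks was run as an alternative. Another alternative blocked mice by the prefix of their names (17 prefixes, consensus correlation 0.198).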

Additional observations from a re-analysis of the deposited data

Results flagged for a closer look

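In a gap test for single samples, 3 of 44 groups of 8 mice (11 genes in 4 genotypes) had a mouse far from the others, where chance alone flags about 1 in 20 groups. Polq+/- male 3 had 0.602 CPM of Polq, and the other 7 Polq+/- mice had 1.20 to 1.38 CPM. Polq+/- female 2 had 26.5 CPM of Abi3bp, and the other 7 had 10.7 to 17.6 CPM. Q140 male 2 had 16 CPM of Mylk, and the other 7 Q140 mice had 13.4 to 14.4 CPM.

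The effect of the Polq label on Mylk in Q140 mice differed between the tissues of the same animals, by -1.01 on the log2 scale (cortex minus striatum, edgeR adjusted p = 1.25e-08).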

How the results depend on the processing

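The count of called genes, Q140 Polq+/- against Q140, was 10 with all libraries, 16 by DESeq2 and 5 without the 3 Q140 Polq+/- mice of lowest Polq. It was 8 to 11 under every other alternative run and 8 to 11 when 1 library was left out. Within 10 Mb of Polq 5 genes were called, 9 within 25 Mb, and 2 within 10 Mb without those 3 mice; leaving out 1 library gave 4 to 6. Fbxo40, Cd47, Ift57, Ccdc80 and Pcnp were called in all 30 alternatives run on them. For Pcnp these include its sum with Gm7887 (-0.13, edgeR adjusted p = 0.0302), and its own call is uncertain because of that near-identical copy. Polq was not called by edgeR without the low-count filter (-1.14, adjusted p = 0.113) or with only the 16 libraries compared (-1.14, adjusted p = 0.511). It was also not called without the 3 mice (-0.67, adjusted p = 0.316), which were picked by their low Polq, so that outcome followed from the choice. Leaving out 1 library gave -1.30 to -1.01 for Polq. Htt stayed within -0.034 to 0.007 when 1 library was left out and turned to 0.007 without Q140 male 3 and to 0.005 without Q140 Polq+/- male 1. Abi3bp was not called in 20 of 30 alternatives, among them the replicate block (adjusted p = 0.0851), the mouse-name prefix as a block (0.0635), the well column (0.188) and only the 16 libraries (0.29). With the replicate block 11 genes were called and 5 of 8 mice correlated best with their own number. Polq+/- against wild type gave 8 calls and 5 to 10 when 1 library was left out, with 5 without Polq+/- female 1, female 2 or male 3 or wild-type female 3 or male 4. The difference between tissues gave 2 calls at an adjusted p under 0.1. Interaction and sex difference gave 0 calls under each alternative run. The cause of these changes was not tested. Genes as scarce as Polq (13 to 98 counts per library) limit the precision.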
